A study of Mus musculus with 6 samples.

Results

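The 41 genes described here act in the G2 phase and in mitosis: the kinase Cdk1 with its cyclins and activators, the mitotic kinases, the spindle checkpoint, the kinetochore, the spindle motors, and the proteins that part the daughter cells. They form a list of gene names, each found by symbol in the authors' normalized table, which gave 23525 symbols. Their counts come from the table of 53379 annotated genes. The matching uses no measured value, but the list was drawn up with earlier results of these data known. All 41 had enough reads to be tested, among 14537 genes tested in all, and the least abundant member still had 97 counts in its poorest library. RNA came from organoids, which are cultured epithelial clusters, grown from pancreatic tumours of mice of strain C57/Bl6 in domes of matrigel. In these mice, Pdx1-Cre recombines engineered alleles in the pancreatic lineage, and all 6 libraries carry the Trp53 mutant allele R172H. The 3 heterozygous libraries are labelled Trp53LSLR172H/+ with Pdx1-Cre and keep a wild-type copy of Trp53, which encodes the tumour suppressor p53. The 3 libraries with loss of heterozygosity (LOH) are labelled Trp53LSLR172H/- with Pdx1-Cre and lack that copy. Lines 6, 23 and 34 each gave 1 heterozygous and 1 LOH library, and animal ages are not used here.

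Cells enter mitosis when Cdk1, bound to cyclin B, is switched on by Cdc25 phosphatases, and leave it when the anaphase-promoting complex with Cdc20 degrades cyclin B and securin. Most genes of this programme are silent early in the cell cycle and are transcribed together in G2, through the MuvB complex with B-MYB and FOXM1, which reads a promoter element named the cell cycle gene homology region. Wild-type p53 is known to repress many of them through p21 (Cdkn1a) and the repressor form of MuvB, and their summed RNA is widely used as an index of how many cells of a tumour divide.

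Sequences upstream of the start site are shown for 7 members because promoter letters are one thing that most members share and that the list did not use. The first 4 drive Cdk1, its cyclin, and the activator (Cdc20) and ubiquitin-conjugating enzyme (Ube2c) of the anaphase-promoting complex. Those of Gtse1, Mki67 and Cdc25b belong to members described below for their change or their direction. Each is the RefSeq sequence of build GRCm38.p6, written 5′ to 3′ on the strand of the gene and ending at the base before the start site. They lie at chr10:69352913-69353032 (minus strand) for Cdk1, chr13:100786487-100786606 (minus) for Ccnb1, chr4:118437344-118437463 (minus) for Cdc20, chr2:164769809-164769928 (plus) for Ube2c, chr15:85859587-85859706 (plus) for Gtse1, chr7:135716380-135716579 (minus) for Mki67 and chr2:131186828-131186947 (plus) for Cdc25b. Capitals mark TTTGAA and TTTAAA, forms of the homology region, and CCAAT, the box bound by NF-Y, on either strand, so that TTCAAA and ATTGG are the same letters read on the other strand.
Cdk1: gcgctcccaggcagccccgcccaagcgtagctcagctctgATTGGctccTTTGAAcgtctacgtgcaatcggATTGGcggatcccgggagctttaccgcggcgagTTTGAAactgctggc
Ccnb1: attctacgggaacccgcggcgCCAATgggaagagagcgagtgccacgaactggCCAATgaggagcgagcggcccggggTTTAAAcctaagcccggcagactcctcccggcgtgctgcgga
Cdc20: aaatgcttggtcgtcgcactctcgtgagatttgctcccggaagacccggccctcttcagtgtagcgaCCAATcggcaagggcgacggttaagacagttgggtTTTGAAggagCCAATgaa
Ube2c: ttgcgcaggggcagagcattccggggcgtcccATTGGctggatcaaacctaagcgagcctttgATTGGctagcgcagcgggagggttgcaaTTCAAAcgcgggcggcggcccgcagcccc
Gtse1: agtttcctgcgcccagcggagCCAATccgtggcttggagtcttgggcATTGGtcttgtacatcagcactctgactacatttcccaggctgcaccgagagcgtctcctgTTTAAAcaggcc
Mki67: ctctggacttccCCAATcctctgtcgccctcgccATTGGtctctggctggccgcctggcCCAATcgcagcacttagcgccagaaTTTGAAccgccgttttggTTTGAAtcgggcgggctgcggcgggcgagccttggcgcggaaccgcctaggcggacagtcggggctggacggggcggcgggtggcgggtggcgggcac
Cdc25b: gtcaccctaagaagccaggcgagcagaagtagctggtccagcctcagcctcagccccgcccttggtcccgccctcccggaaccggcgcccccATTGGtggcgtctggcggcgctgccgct

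The RefSeq promoter table, which covers 250 bases before to 50 bases after each start site, held 34 of the 41 members. TTTGAA was found in 70.6% of these genes, against 14.4% of the tested genes with a promoter there, and TTTAAA in 29.4% against 10.9%. At least 1 of these forms was present in 28 of the 34 (82.4%), against 22.6% of tested genes and 30.6% of all genes of the table. CCAAT was present in 79.4% against 43.3%, and at least 2 copies in 55.9% against 17.0%. A form of the homology region together with CCAAT occurred in 70.6% of members and in 9.38% of tested genes. For 41 genes of DNA replication and G1/S, the share with TTTGAA or TTTAAA was 33.3% (33 genes in the table), and 18.2% held a form together with CCAAT. Of these replication genes, 60.6% had CCAAT and 39.4% at least 2 copies, shares that also lie above those of the tested genes. TTTAAA reads the same on both strands, and in the promoters of the members 1 pair of matches to different motifs overlapped. The Cdc25b window held CCAAT and neither form, as did those of Bub1 and Nek2, and Mad2l1, Nuf2 and Pttg1 also held neither form. These matches describe letters in a window and say nothing of binding.

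Trp53, the gene that differs between the groups, had 77.3, 76.3 and 86.5 CPM (counts relative to library size, which was scaled by TMM for differences in composition) in heterozygous lines 6, 23 and 34, and 73.5, 52.5 and 47.4 in the LOH libraries of the same lines (log2 fold change -0.47, edgeR adjusted p = 0.227). All 3 LOH values lay below all heterozygous values; gene counts do not separate the R172H from the wild-type allele, so the total does not check the labels. Cdkn1a had 27.5, 24.9 and 21.96 CPM in heterozygous and 8.03, 21.7 and 19.0 CPM in LOH libraries (-0.61, edgeR adjusted p = 0.339). In the sample descriptions, LOH names end in Nut and heterozygous names do not; the meaning of Nut is not given in the sources used here, and it cannot be told apart from genotype. Libraries held 13680500 to 27917300 expected counts, and the share on protein-coding genes was 67.9% to 73.3% in heterozygous and 61.4% to 67.2% in LOH libraries. All 9 epithelial markers were tested, with summed levels of 4750.2 to 5542 CPM in heterozygous and 4909 to 9314 CPM in LOH libraries. None of 10 fibroblast markers passed the filter on low counts, with sums of 0 to 0.133 CPM in heterozygous and 0.559 to 0.931 CPM in LOH libraries and Col3a1 and Thy1 at 0. None of 8 endothelial markers passed, with sums of 0.519 to 0.901 and 0.868 to 3.20 CPM and Emcn at 0. Of 10 leukocyte markers 2 were tested, with sums of 46.2 to 49.3 CPM in heterozygous and 22.99 to 48.2 CPM in LOH libraries, mostly from Cd14, which had 43.9, 47.3 and 44.1 CPM in heterozygous and 19.7, 40.5 and 31.4 CPM in LOH lines 6, 23 and 34. Cd68, the other leukocyte marker tested, had 1.70, 1.78 and 1.84 against 2.97, 6.95 and 14.7 CPM, higher in all LOH libraries; Adgre1, Lyz2 and Tyrobp were among those at 0. Of 10 acinar and endocrine markers 1 was tested, with sums of 0.601 to 0.816 and 0.944 to 2.62 CPM and Ptf1a, Ins1, Ins2 and Sst at 0. The part of the protein-coding share and of these marker levels in the results was not tested.

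Most mitosis and G2/M genes had lower RNA in the LOH libraries, by modest amounts, and few passed the test singly. The fitted log2 fold change was below 0 for 34 of the 41, where 46.0% of all genes tested lay below 0. The median member stood at -0.44 (quartiles -0.58 and -0.21), beside 0.06 for all genes tested. With edgeR and Benjamini-Hochberg adjustment over all genes, 2 members passed 0.05, Gtse1 and Mad2l1, both lower in LOH, where 1.66% of all genes tested were called lower and 5.21% were called in either direction. At an unadjusted p under 0.05, 10 members were lower, beside 10.6% of all genes, and 0 were higher, beside 14.7%. The 3 LOH values lay wholly below the 3 heterozygous values for 15 members (16.5% of all genes) and wholly above for 0 (16.4% of all genes). For each of those 15, p was 0.1 in the exact two-sided permutation test, which cannot go lower with 3 libraries a group. Groups that do not overlap give this value by construction, so it adds nothing to the count of 15. In bulk RNA a smaller share of dividing cells and less RNA per dividing cell cannot be told apart, and since the labels do not say whether libraries came from separate cultures, the p-values measure only the spread between these samples.

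**Figure D1:**
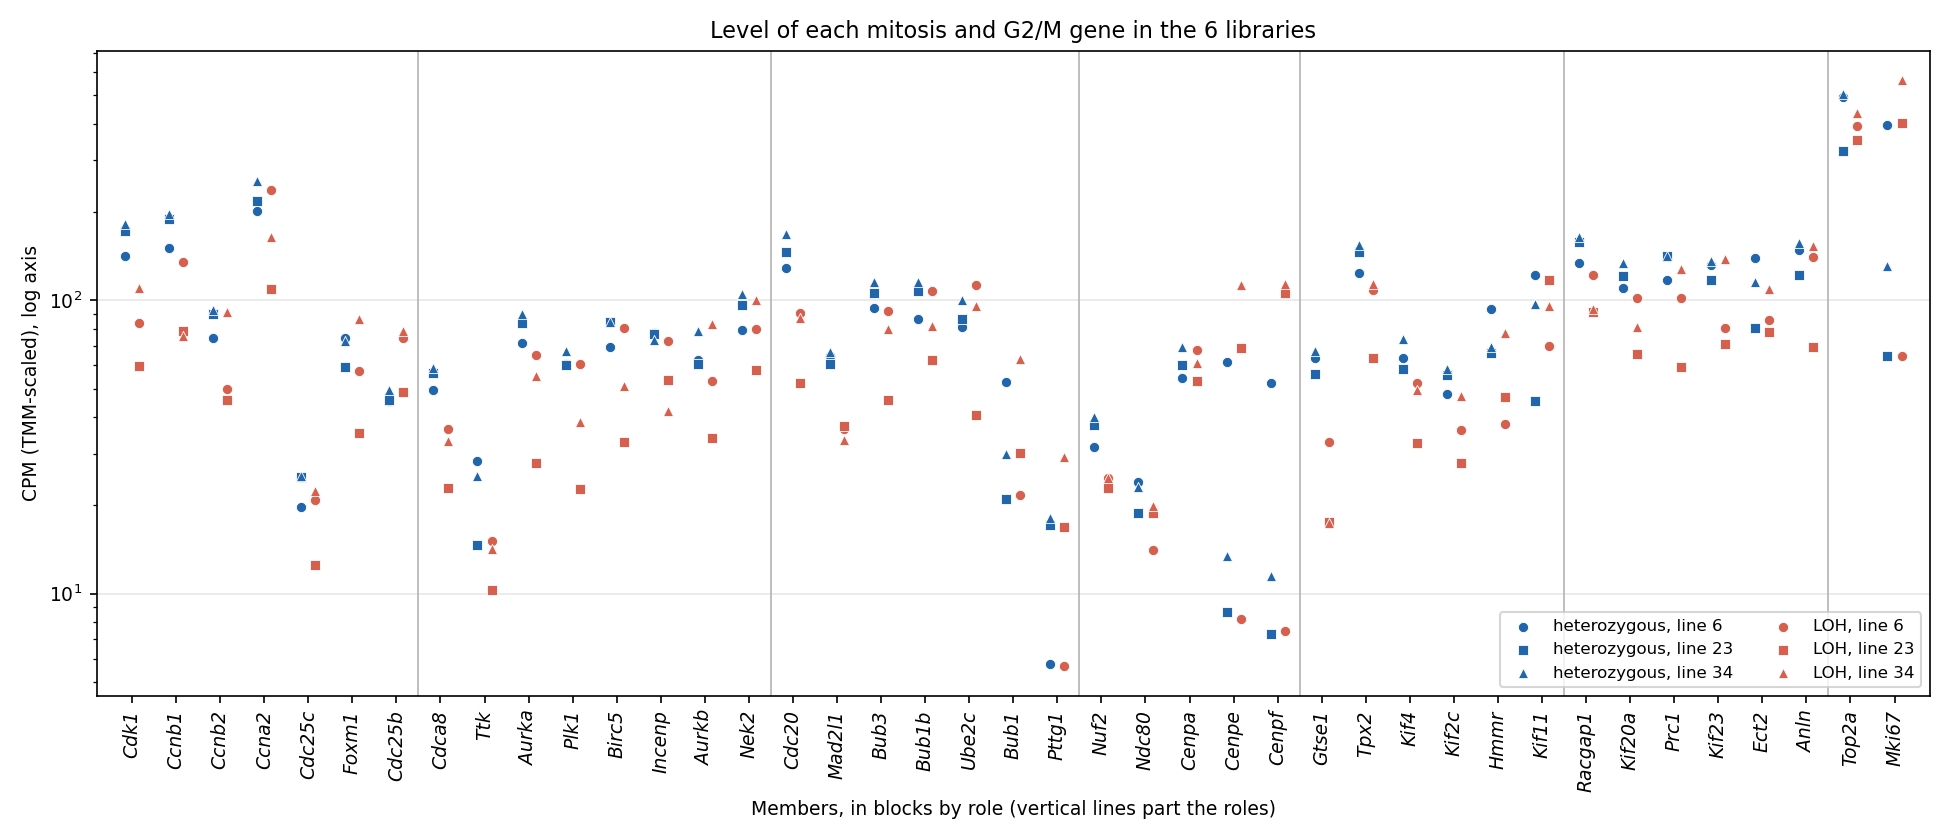
TMM-scaled CPM of the 41 members (log axis) in each of the 6 libraries, heterozygous in blue and LOH in red, with the marker shape giving the organoid line and vertical lines parting the roles. The groups do not overlap for 15 members, among them Gtse1, Mad2l1, Cdk1 and Cdc20, while Cenpf, Cenpe and Mki67 span 15.6-fold, 13.8-fold and 8.73-fold over the libraries.

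The median of the members was below 0 in every line and uneven between them. Within line 23 the median log2 ratio of LOH to heterozygous was -0.80, against -0.28 in line 6 and -0.22 in line 34; for all genes these medians were 0.03, -0.01 and 0.06. Ratios were below 0 for 32 members in line 6 (50.7% of all genes), 34 in line 23 (48.6%) and 31 in line 34 (47.6%). In all 3 lines together, 21 members were lower (21.6% of all genes), 1 was higher (Cdc25b), and 19 took both signs. The LOH library of line 23 held the lowest level of 27 members, and the heterozygous library of line 34 the highest level of 24. Together the members took 0.486%, 0.352% and 0.465% of all reads in heterozygous lines 6, 23 and 34 and 0.317%, 0.256% and 0.321% in the LOH libraries. On TMM-scaled CPM their sums were 4126, 3569 and 4236 in heterozygous and 3139, 2701 and 3950 CPM in LOH libraries. On that scale the groups overlapped, with LOH line 34 above heterozygous line 23. This overlap rests on Mki67, Cenpe and Cenpf, which are described below. They had 564, 113 and 113 CPM in LOH line 34 and 64.8, 8.68 and 7.27 CPM in heterozygous line 23. Over the members, the LOH libraries also varied more among themselves, with a median ratio of highest to lowest of 1.79, against 1.27 among heterozygous libraries. This ratio was not taken over all genes, so the wider spread cannot be called particular to the members.

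With organoid line as a block in the edgeR fit, 34 members were again below 0 and the median was -0.47, but 0 members passed 0.05, where 1.47% of all genes did; the smallest adjusted p of a member was 0.0820. With the block, 8 members had an unadjusted p under 0.05, and 8.54% of all genes had one in the lower direction. The call on members also rested on single libraries. Without the LOH library of line 23 the median was -0.26, with 30 members below 0 and 0 called (7 lower and 1 higher at an unadjusted p under 0.05), where 0.916% of all genes were called lower and 9.51% and 13.2% had an unadjusted p under 0.05 in the lower and higher direction. Without that of line 34, 1 member was called, Cdk1, where 1.57% of all genes were called lower. Without any 1 of the heterozygous libraries, 0 genes of the whole table passed 0.05 in edgeR, while 2272 to 2966 genes had an unadjusted p under 0.05. Without the LOH library of line 6, 10 members were called, all lower, where 8.68% of all genes were called lower. Gtse1 and Mad2l1 were the called members also with RLE scaling, upper quartile scaling, no filter on low counts, at least 10 counts in every library, or protein-coding genes only, where 1.66%, 1.66%, 1.10%, 1.53% and 1.88% of genes were called lower. DESeq2 called 7 members, all lower, beside 6.15% of all genes: Ccnb1, Cdc20, Cdca8, Cdk1, Gtse1, Mad2l1 and Nuf2.

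**Figure D2:**
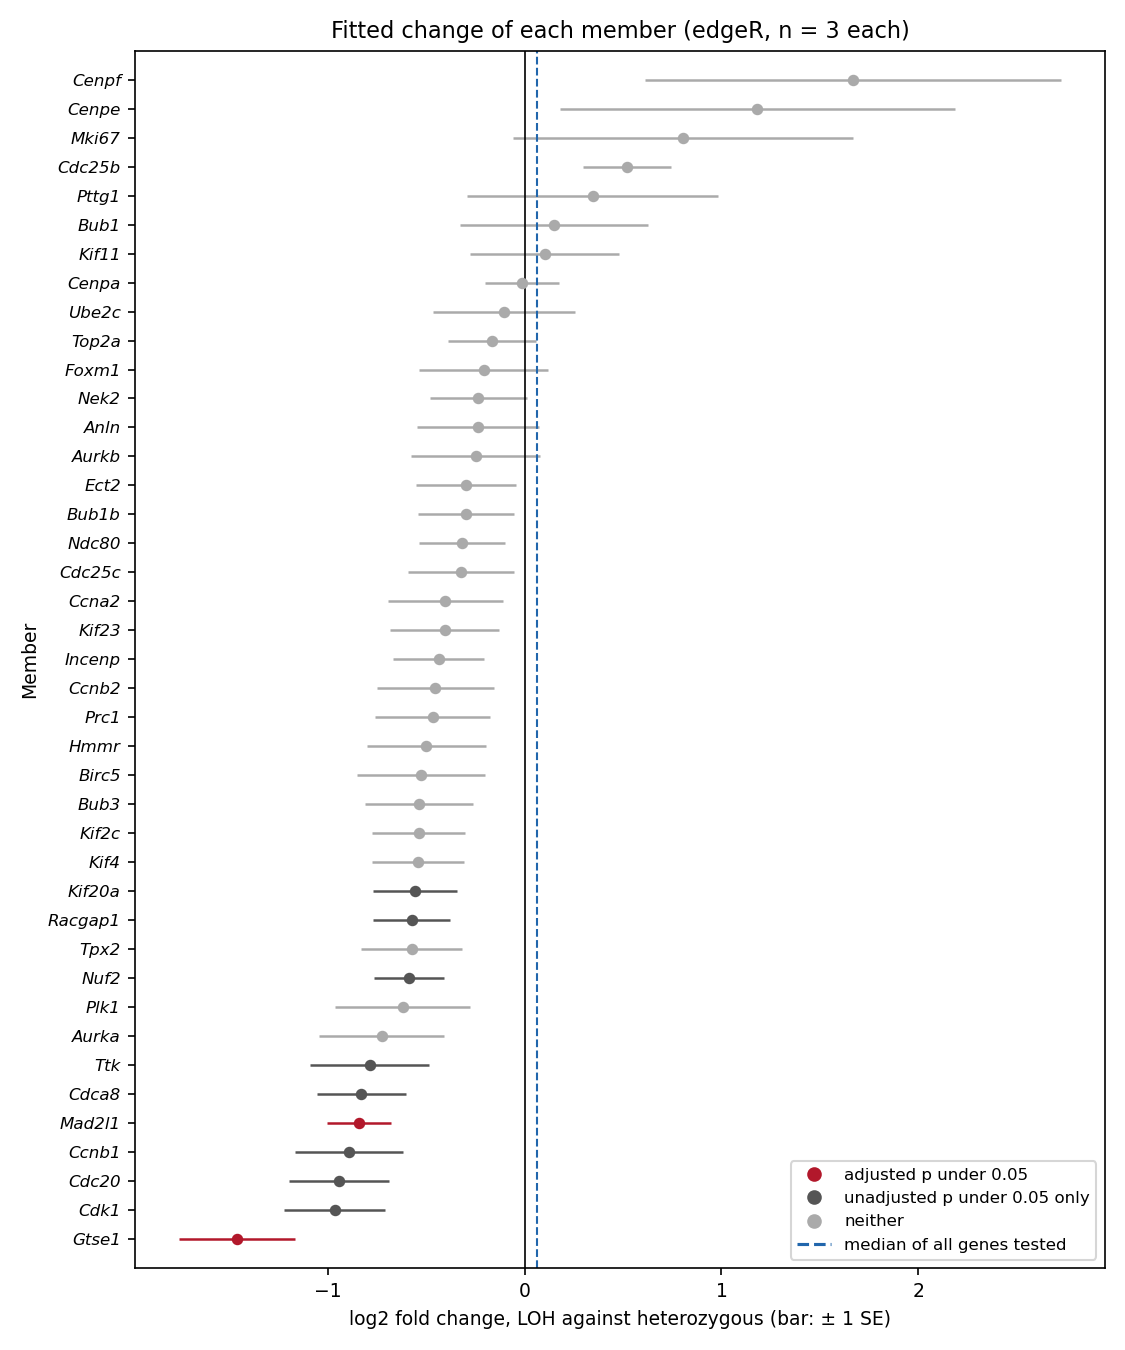
Fitted log2 fold change of each member, LOH against heterozygous, with bars of 1 SE from the edgeR fit on 3 libraries each; the dashed line is the median of all genes tested (0.06). Gtse1 and Mad2l1 (red) passed the adjusted threshold, and the 7 members above 0 carry wider bars than most others, except Cdc25b.

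Among Cdk1, its cyclins and its activators, 6 of 7 genes lay below 0, with a median of -0.41 and 0 called in edgeR. At an unadjusted p under 0.05, 2 were lower, beside 10.6% of all genes. Cdk1, the kinase that drives entry into mitosis, had 141.8, 171.8 and 182.2 CPM in heterozygous lines 6, 23 and 34 and 83.9, 59.7 and 109.9 CPM in LOH. All LOH libraries were below all heterozygous ones, at 84.5 ± 25.1 against 165.3 ± 20.97 CPM (SD, n = 3 each; log2 fold change -0.97, SE 0.26, edgeR adjusted p = 0.0761). Ccnb1, which encodes cyclin B1, had 151, 189.6 and 197 CPM in heterozygous and 135, 78.6 and 75.4 CPM in LOH libraries. The groups did not overlap, but line 6 differed by -0.16 and lines 23 and 34 by -1.27 and -1.38 (fit -0.89, SE 0.27, edgeR adjusted p = 0.101). Ccna2, the cyclin A of S and G2 phase, had 202, 219 and 255 against 237, 109 and 164 CPM; here LOH line 6 lay inside the heterozygous range (-0.41, edgeR adjusted p = 0.418). Ccnb2 and Cdc25c, a second cyclin B and a phosphatase that activates Cdk1, had fitted values of -0.46 and -0.33. Foxm1, the transcription factor of the G2/M genes, had 74.6, 59.4 and 72.8 CPM in heterozygous and 57.3, 35.1 and 86.5 CPM in LOH libraries, so that LOH held both its lowest and its highest value (-0.21, edgeR adjusted p = 0.717). Its sign turned to 0.06 without LOH line 23.

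Cdc25b, another phosphatase that activates Cdk1, was the member with a higher value in LOH in each line. It had 45.4, 45.8 and 49.4 CPM in heterozygous and 74.2, 48.7 and 78.5 CPM in LOH libraries, with line 23 differing by 0.09 only. The fitted value of 0.52 (SE 0.22) did not pass (edgeR adjusted p = 0.205). Its main transcript, Cdc25b-202, held 64.9%, 89.2% and 62.7% of the gene's counts in heterozygous lines 6, 23 and 34 and 59.5%, 55.5% and 49.9% in LOH, so that these ranges did not overlap. Its gene overlaps Spef1 on the other strand, and the strand setting of the counting is not given in the sources used here.

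All 8 genes of the mitotic kinases and the chromosomal passenger complex lay below 0, with a median of -0.57 and 0 called in edgeR. At an unadjusted p under 0.05, 2 were lower, beside 10.6% of all genes. Aurka, the kinase of centrosomes and spindle poles, had 71.8, 83.7 and 89.7 CPM in heterozygous and 64.9, 27.8 and 55.4 CPM in LOH libraries. The groups did not overlap, with line 23 differing most (-1.59; fit -0.73, SE 0.32, edgeR adjusted p = 0.208). Plk1, the polo-like kinase that acts from mitotic entry to cytokinesis, had 60.5, 60.2 and 67.1 against 60.9, 22.7 and 38.6 CPM. Its line 6 libraries were nearly equal (0.01), and lines 23 and 34 differed by -1.40 and -0.80 (edgeR adjusted p = 0.304). The passenger complex holds Aurora B to chromosomes and then to the midzone. Its kinase Aurkb had 62.7, 60.7 and 78.5 CPM in heterozygous and 53.1, 33.8 and 82.7 CPM in LOH libraries, where line 34 was the highest of all 6 (-0.25, edgeR adjusted p = 0.660). Its subunit Birc5, also known as survivin, had 69.1, 84.1 and 84.1 against 80.7, 33.0 and 51.0 CPM, with LOH line 6 among the heterozygous values (-0.53, edgeR adjusted p = 0.350). The scaffold Incenp stood at -0.44, and Cdca8, which encodes borealin, at -0.83 with no overlap between groups (edgeR adjusted p = 0.0791). Ttk, the checkpoint kinase MPS1, stood at -0.79, and Nek2, which separates centrosomes, at -0.24.

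In the spindle checkpoint and the control of anaphase, 5 of 7 genes lay below 0, and 1 was called lower, beside 1.66% of all genes. Mad2l1, whose product MAD2 holds Cdc20 inactive until chromosomes are attached, had 64.6, 60.5 and 66.7 CPM in heterozygous and 36.4, 37.1 and 33.4 CPM in LOH libraries. The groups were far apart and narrow, at 63.9 ± 3.16 and 35.6 ± 1.99 CPM (SD, n = 3 each). Mad2l1 fell in LOH in the edgeR fit (log2 fold change -0.84, SE 0.16, adjusted p = 0.0369), with -0.83, -0.70 and -0.996 in lines 6, 23 and 34. With line as a block its adjusted p was 0.143 in edgeR. Cdc20, the coactivator that Mad2l1 restrains, had 129, 146 and 169 against 90.8, 52.4 and 87.4 CPM, with no overlap (-0.95, SE 0.26, edgeR adjusted p = 0.0784). Bub1b, which encodes the checkpoint protein BUBR1, had 86.2, 108 and 116 against 107, 62.7 and 81.8 CPM, and the groups overlapped through LOH line 6 (-0.30, edgeR adjusted p = 0.474). Its partner Bub3 stood at -0.54. Ube2c, which supplies ubiquitin to the anaphase-promoting complex, had 80.9, 86.4 and 100.4 against 112, 40.7 and 95.7 CPM, so that both extremes were LOH libraries (-0.11, edgeR adjusted p = 0.879); without LOH line 23 its value was 0.22.

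Bub1 and Pttg1 of this group lay above 0. Bub1, the kinase that marks centromeres for the checkpoint, had 52.7, 21.1 and 30.0 CPM in heterozygous and 21.7, 30.2 and 63.2 CPM in LOH libraries. It was lower in line 6 (-1.28) and higher in lines 23 and 34 (0.52 and 1.07; fit 0.15, edgeR adjusted p = 0.871). Pttg1, which encodes securin, the inhibitor of separase, had 5.74, 17.1 and 18.0 against 5.65, 16.8 and 29.3 CPM. It differed between lines more than between genotypes within lines 6 and 23, at -0.02 in both (edgeR adjusted p = 0.763).

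The 5 centromere and kinetochore genes were divided, with 3 below 0 and 0 called in edgeR. At an unadjusted p under 0.05, 1 was lower, beside 10.6% of all genes. Nuf2 and Ndc80 encode subunits of the complex that grips microtubules. Nuf2 stood at -0.59 with no overlap (edgeR adjusted p = 0.0980). Ndc80 had 23.9, 18.8 and 23.2 CPM in heterozygous and 14.0, 18.8 and 19.9 CPM in LOH libraries, equal in line 23 (-0.32, edgeR adjusted p = 0.392). Cenpa, the histone H3 variant that defines centromeres, had 54.2, 60.3 and 69.5 against 67.8, 53.0 and 61.4 CPM. These were the most even levels of any member, with the highest library 1.31-fold above the lowest (-0.02, edgeR adjusted p = 0.968).

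Cenpf, a large kinetochore and nuclear matrix protein, had 52.4, 7.27 and 11.5 CPM in heterozygous and 7.45, 106 and 113 CPM in LOH libraries. Cenpe, the kinesin that moves chromosomes to the spindle equator, had 61.5, 8.68 and 13.4 against 8.21, 68.8 and 113 CPM. Mki67, which encodes Ki-67, the surface protein of mitotic chromosomes and a common histological index of division, had 395, 64.8 and 131 against 64.6, 403 and 564 CPM. All 3 genes were high in the same libraries, heterozygous line 6 and LOH lines 23 and 34, and low in the other 3. Their log2 ratios were -2.80, 3.85 and 3.29 for Cenpf, -2.89, 2.97 and 3.07 for Cenpe, and -2.61, 2.64 and 2.10 for Mki67 in lines 6, 23 and 34. The fits gave 1.67 (SE 1.06), 1.18 (SE 1.005) and 0.80 (SE 0.87), with edgeR adjusted p-values of 0.360, 0.488 and 0.587. Without both libraries of line 6, which leaves 2 against 2, 9.66% of all genes were called in either direction and 3.93% lower. Ccnb1 and Gtse1 were called lower in that fit. These 3 genes were called higher, at 3.508, 3.001 and 2.271 for Cenpf, Cenpe and Mki67 (edgeR adjusted p = 0.0376, 0.0389 and 0.0464). That fit leaves out the line in which these 3 genes were lower in LOH. Without line 23 they stood at 0.92, 0.69 and 0.25 (edgeR adjusted p = 0.799, 0.849 and 0.940), and without line 34 at 0.92, 0.13 and 0.02 (edgeR adjusted p = 0.811, 0.976 and 0.995).

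These 3 genes also have the longest transcripts of the 41, at 11130, 7910 and 10061 bases for Cenpf, Cenpe and Mki67; the other 38 run from 741 to 5221 bases. Across the transcriptome, length and base composition moved with the same libraries. The eighth of tested genes with the longest transcripts, 1814 genes of 5476 bases or more, had median log2 ratios of -0.34, 0.68 and 0.42 in lines 6, 23 and 34. The eighth with the lowest GC content, at or below 42.3%, had -0.87, 0.93 and 0.75. Cenpf, Cenpe and Mki67, at 43.3%, 42.9% and 46.6% GC, lie above that bound. The eighth by GC content that holds Mki67 had medians of -0.02, -0.06 and -0.02. For 654 genes both in the longest eighth and with a GC content of at most 45.3% the medians were -0.85, 1.47 and 0.91. Cenpf and Cenpe are among these genes and Mki67 is not. A smooth trend on length and GC over 99.9% of tested genes gave -1.40, 2.21 and 1.58 at the length and GC of Cenpf, -1.27, 1.88 and 1.39 at those of Cenpe, and -1.09, 1.80 and 1.27 at those of Mki67, less than each gene's own ratios. With that trend taken out, the edgeR values were 0.82, 0.50 and 0.13 for Cenpf, Cenpe and Mki67. At the length and GC of Bub1, that trend was -0.70, 0.69 and 0.55 in lines 6, 23 and 34, and at those of Kif11 -0.70, 0.87 and 0.65. What makes length and GC differ between these libraries was not tested.

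**Figure D3:**
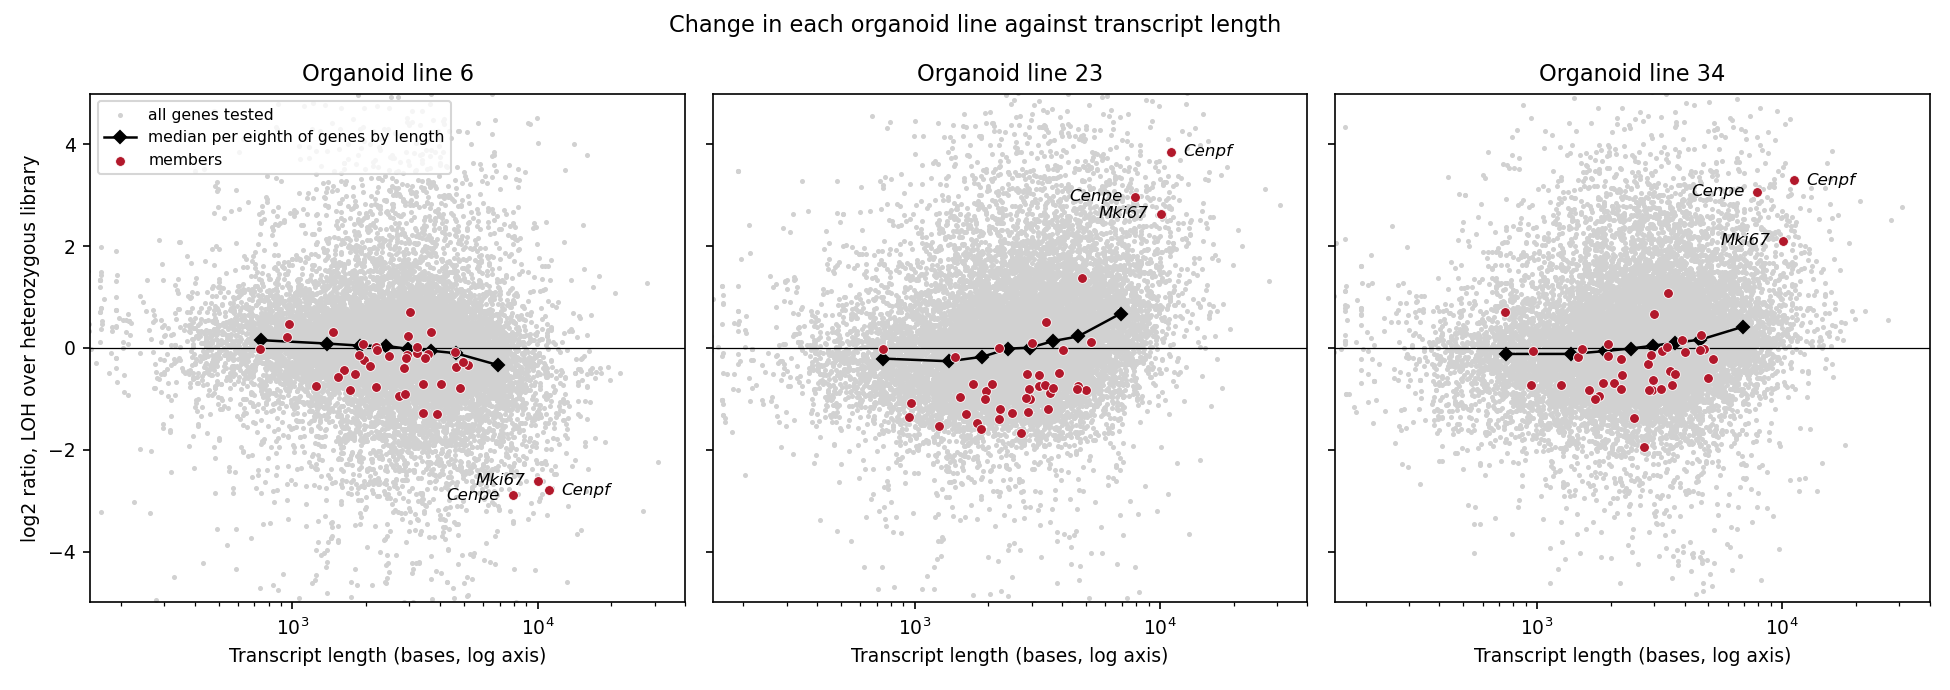
Log2 ratio of LOH to heterozygous CPM in each organoid line against the length of the gene's main transcript (log axis), with all genes tested in grey, members in red and the median of each eighth of genes by length in black. The vertical axis stops at 5 on either side, which leaves out some grey genes and no member; Cenpf, Cenpe and Mki67 lie below 0 in line 6 and above 0 in lines 23 and 34.

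For the other 38 members, a group formed after the values were seen, 34 were below 0 and the median was -0.46, with -0.22, -0.82 and -0.38 in lines 6, 23 and 34. With the trend removed over all genes, 35 of the 41 members were below 0, and their median was -0.44, where all genes had -0.01. Gtse1 then had an edgeR adjusted p of 0.0283, and 0.0450 with line as a block, and Mad2l1 had 0.0765 and, with the block, 0.165. In these fits 2.04% and 0.722% of all genes were called lower.

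Among spindle motors and microtubule proteins, 5 of 6 genes lay below 0, with a median of -0.54 and 1 called lower, beside 1.66% of all genes. Gtse1, a microtubule-binding protein of G2 and S phase that is known to restrain p53, had 63.5, 56.1 and 67.3 CPM in heterozygous and 32.9, 17.5 and 17.4 CPM in LOH libraries. Every LOH library lay below every heterozygous one, with LOH lines 23 and 34 lowest. Group means were 62.3 ± 5.68 in heterozygous and 22.6 ± 8.95 CPM in LOH (SD, n = 3 each). Gtse1 fell more than any other member in the edgeR fit (log2 value -1.46, SE 0.29, adjusted p = 0.0399). It differed by -0.94, -1.68 and -1.94 in lines 6, 23 and 34, and its edgeR adjusted p was 0.0820 with line as a block. It has 1 annotated transcript. Kif11, the motor that pushes spindle poles apart, had 122, 45.3 and 97.1 against 70.1, 118 and 95.6 CPM, lower in line 6 (-0.80) and higher in line 23 (1.37; fit 0.10, edgeR adjusted p = 0.892). Its sign turned to -0.12 with the length and GC trend removed. Tpx2, which activates Aurora A on the spindle, stood at -0.58, the chromokinesin Kif4 at -0.55, the microtubule depolymerase Kif2c at -0.54 and the spindle protein Hmmr at -0.50. For Tpx2, Kif4 and Kif2c the groups did not overlap.

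All 6 genes of the spindle midzone and cytokinesis lay below 0, with a median of -0.44 and 0 called in edgeR. At an unadjusted p under 0.05, 2 were lower, beside 10.6% of all genes. Racgap1, a subunit of centralspindlin, stood at -0.58 with no overlap (edgeR adjusted p = 0.125), and its motor partner Kif23 at -0.41. The midzone kinesin Kif20a stood at -0.56 with no overlap, and the microtubule bundler Prc1 at -0.47. Ect2, the exchange factor that starts the contractile ring, and Anln, which links that ring to the membrane, stood at -0.30 and -0.24. Kif20a overlaps Cdc23 and Prc1 overlaps Rccd1 on the other strand. The same holds for Cdc20 and Elovl1, Ccna2 and Exosc9, Bub3 and Fgfr2, Ube2c and Tnnc2, and Kif4 and Pdzd11. Foxm1 overlaps Tex52 on the same strand. Further overlaps of members, with provisionally named genes or a microRNA, are not listed. Top2a, the topoisomerase that untangles mitotic chromosomes, had 492, 324 and 507 CPM in heterozygous and 392, 352 and 435 CPM in LOH libraries, all LOH values lying inside the heterozygous range (-0.17, edgeR adjusted p = 0.667).

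The TPM scale divides counts by transcript length and so allows levels of different genes to be set side by side. On it, Cdk1 was the most abundant member in heterozygous libraries, at 212 ± 15.97 TPM (SD, n = 3 each). In LOH libraries Cdk1 had 84.4 ± 24.4 TPM, beside 88.5 ± 43.8 for Ube2c and 84.3 ± 6.51 for Top2a. Top2a, Ube2c and Ccnb1 came next in heterozygous libraries, at 128 ± 39.5, 123 ± 11.96 and 109 ± 5.22 TPM, differing by less than the spread of Top2a. Cenpe and Cenpf were the lowest in heterozygous libraries, at 4.90 ± 5.35 and 4.44 ± 3.06 TPM, and Ttk in LOH libraries, at 4.31 ± 1.01 TPM. On log2(TPM + 1) the median of all genes shifted to -0.35, that of the members to -0.85, and limma called 15 members, all lower, beside 13.7% of all genes called lower; on log2(TPM + 0.1) these were 13 and 12.5%. Set against that shift, members differed by about as much as on the CPM scale.

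Levels of most members went up and down together over the 6 libraries, as a description. The group difference was not removed first, so this partly restates that most members were lower in LOH. No such value was taken for genes outside the members. Pearson's r of a member's log2 CPM with the mean of the other members was 0.97 for Kif23, 0.90 for Kif2c and 0.89 for Foxm1. It was -0.27 for Cenpf, -0.16 for Cdc25b, -0.12 for Cenpe, -0.04 for Mki67, and 0.00 and 0.01 for Pttg1 and Kif11. Of the 41 genes, 35 have several annotated transcripts and 6 have 1. In 25 of the 41 the main transcript held at least 80% of the counts in every library. The 6 genes with 1 transcript are among these 25 by construction. The shares of the main transcript did not overlap between groups in 4 of the 35, Bub1b, Cdc25b, Plk1 and Prc1, which were named after their values were seen. Of the 11079 tested genes with several transcripts and counts in every library, 12.5% had no such overlap, a share near that of the members.

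Further genes of cell division, outside the 41, were read from the same fit. In that fit 1.66% of all genes tested were called lower, and 10.6% were lower at an unadjusted p under 0.05. The list genes counted at these thresholds were all lower. DNA replication and G1/S genes, which precede mitosis in the cycle, lay below 0 in 39 of 41 cases, with a median of -0.65 and 0 called in edgeR (18 at an unadjusted p under 0.05); by line the medians were -0.11, -0.97 and -1.09. Mitosis genes thus had their lowest median in line 23, and replication genes in lines 34 and 23; this difference between lists was not tested. Prim1, the catalytic subunit of primase, had the smallest adjusted p among them (-1.01, edgeR adjusted p = 0.0562), and Cdt1, a licensing factor, stood at 0.06. Other kinetochore and centromere genes lay below 0 in 30 of 36 cases (median -0.43; 0 called in edgeR, 11 at an unadjusted p under 0.05), with Zwilch, which recruits dynein to kinetochores, at -1.01 (edgeR adjusted p = 0.0589). Knl1, the platform of the checkpoint kinases, had the ratios -2.42, 2.68 and 2.43 in lines 6, 23 and 34, the same signs as Cenpf. Other spindle and cytokinesis genes lay below 0 in 20 of 27 cases (median -0.35; 1 called, 8 at an unadjusted p under 0.05). Ckap2, which stabilises spindle microtubules, fell, from 75.1, 78.9 and 85.4 CPM in heterozygous to 43.2, 34.7 and 47.96 CPM in LOH libraries, with no overlap. Its means were 79.8 ± 5.21 CPM in heterozygous and 41.95 ± 6.72 in LOH (SD, n = 3 each; -0.93, SE 0.19, edgeR adjusted p = 0.0421; 0.125 with line as a block), and Cep55, which organises abscission, stood at 0.56 (edgeR adjusted p = 0.297).

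Regulators of Cdk1 with MuvB, B-MYB and FOXM1 partners lay below 0 in 13 of 18 cases, with a median of -0.38. Of these, 0 were called in edgeR and 5 were lower at an unadjusted p under 0.05. The shares over all genes tested were 1.66% called lower and 10.6% lower at that unadjusted p. Cks2, a small subunit of Cdk1 complexes, stood at -1.02 (edgeR adjusted p = 0.0524), and Ensa, an inhibitor of the opposing phosphatase, at 0.44 (edgeR adjusted p = 0.240). Subunits and regulators of the anaphase-promoting complex lay below 0 in 12 of 17 cases (median -0.28; 0 called, 6 at an unadjusted p under 0.05). Fbxo5, its inhibitor EMI1, stood at -0.93 (edgeR adjusted p = 0.0516) and the subunit Anapc2 at 0.38 (edgeR adjusted p = 0.261). Cohesin and condensin genes lay below 0 in 10 of 18 cases, with a median of -0.03 and 0 called, also at an unadjusted p under 0.05. Their medians by line were -1.09, 0.54 and 0.29, with Ncapd3 of condensin II at -0.38 and Rad21 of cohesin at 0.33.

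**Figure D4:**
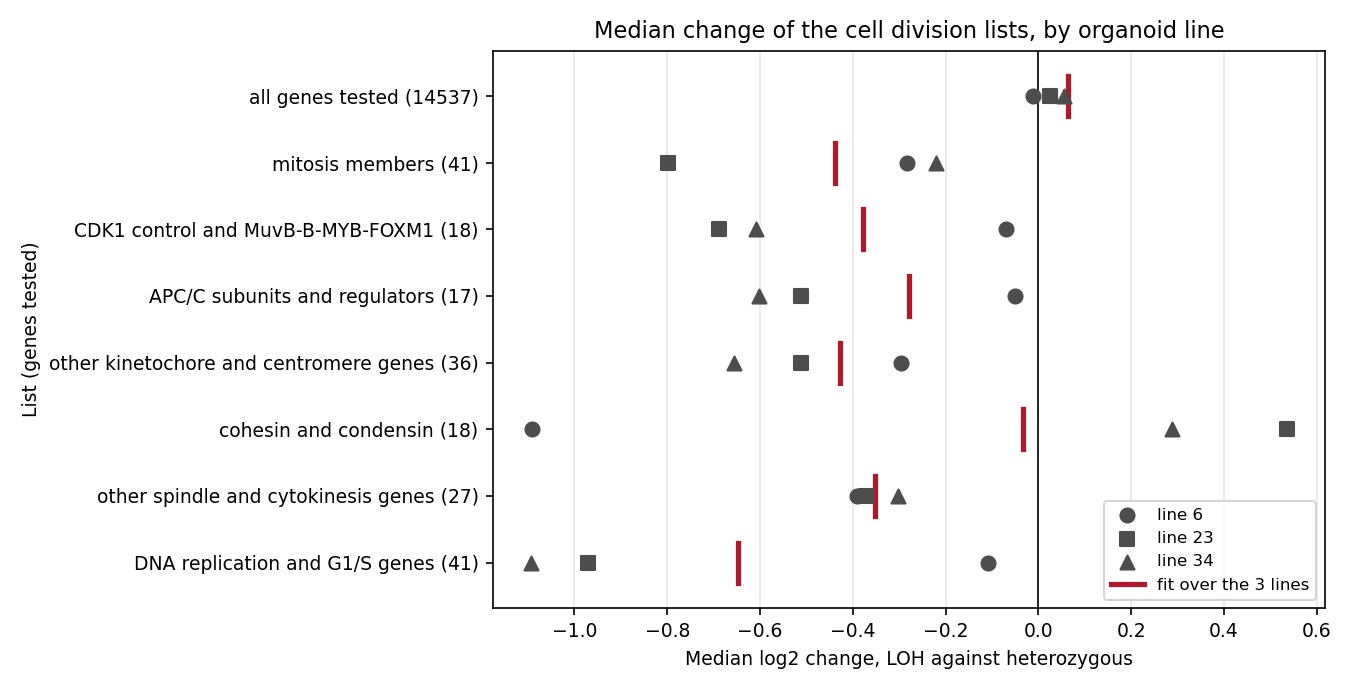
Median log2 change, LOH against heterozygous, of all genes tested and of 7 lists of cell division genes, with grey markers for the 3 organoid lines and a red bar for the fit over all lines. The members lie at -0.28, -0.80 and -0.22 in lines 6, 23 and 34, and cohesin and condensin genes are the list whose lines fall on both sides of 0 by the widest margin.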

How the data were processed

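The labels' protocols name a TruSeq stranded kit for total RNA. Per the submitters' processing notes, FastQC 0.11.5, STAR 2.5.2b, RSEM 1.3.0, DESeq2 1.44.0 and build GRCm38.p5 were used; GENCODE release 16 is named in the deposited tables. Expected counts are the authors' RSEM estimates per gene or transcript, and TPM values are the authors' abundances per length and depth. The authors' normalized tables hold a signal, expected counts over 1 size factor per library, and served here for symbols and the protein-coding set. FPKM values and isoform percent values in the authors' deposited tables were not used.

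Groups and organoid lines came from titles. After rounding, genes passing filterByExpr were scaled by TMM and tested two-sided with edgeR 4.0.16 (quasi-likelihood) in R 4.3.3, with Benjamini-Hochberg adjustment over all genes and a threshold of 0.05. Within-line log2 ratios added a prior count of 2. An SE is the fitted value over the square root of F. The scripts were tested on simulated data, 3 libraries against 3. At a true 2-fold change, 2 of 66 genes were called without the block and 1 of 66 with it. At 4-fold these were 35 and 28 of 67, and at 16-fold 64 and 60 of 67. Of 13936 unchanged genes, 7 were called in each fit. A member that was not called can thus still differ by 2-fold. Between 0.1 and 0.223 CPM equal 3 counts, a floor that covers counting error only. Alternatives were line as a block, other scaling (RLE, upper quartile), other filters (none, or 10 counts in every library), protein-coding genes only, DESeq2 1.42.0, limma 3.58.1 on log2(TPM + 1) and log2(TPM + 0.1), and each library or line left out. Removal of a loess trend on length and GC (span 0.5) was added after seeing the data.

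Titles give libraries of 1 organoid line the same number, so line pairs them; their deviations from the group means correlated at -0.30, 0.01 and 0.29 for lines 6, 23 and 34, and at -0.39 to 0.30 for different lines. The members and lists were chosen with earlier results of these data known. Values in every library are given for 17 members named in the rule, for the 4 members of smallest p in each direction, and for any member against the common direction; of other lists, fitted values are given for genes past the threshold or the gene of smallest p in each direction, with values in every library for Ckap2, the only one past the threshold, and with Knl1 and Stag2 described further after their values were seen. Coordinates come from GENCODE release 21 and promoters from RefSeq. Python 3.11.15 with numpy 2.4.6, pandas 2.3.3 and matplotlib 3.10.9 made tables and figures. A part of the genotype that all libraries share, and a marker gene, are not reported here.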

Additional observations from a re-analysis of the deposited data

Results flagged for a closer look

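For 19 members the log2 ratio of LOH to heterozygous was above 0 in at least 1 organoid line and below 0 in another, with 1 library of each genotype per line; the difference between lines was not tested. Lines lay farthest apart for Cenpf (a distance of 6.65 between the extreme log2 ratios), Cenpe (5.96) and Mki67 (5.25), all lower in LOH in line 6 and higher in lines 23 and 34. Bub1 had the same signs with a distance of 2.35. Kif11, higher in line 23 only, spanned 2.17, and Top2a, also higher in line 23 only, 0.446.

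In line 6 alone, Birc5, Bub1b, Ccna2, Cdc25c, Cenpa, Nek2, Plk1 and Ube2c were higher in LOH, with distances of 1.57, 1.09, 1.24, 1.08, 0.509, 0.765, 1.41 and 1.56. In line 34 alone, Aurkb, Foxm1, Hmmr, Kif23 and Pttg1 were higher in LOH, with distances of 0.917, 1.004, 1.46, 0.754 and 0.721. Cohesin and condensin genes had medians of -1.09, 0.54 and 0.29 in lines 6, 23 and 34, a distance of 1.63; Stag2 of cohesin had 92.8, 19.5 and 28.1 CPM in heterozygous and 14.4, 133 and 168 CPM in LOH libraries, the same order of signs as Cenpf.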

How the results depend on the processing

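Leaving out any library or line left 30 to 36 of 41 members below 0, with medians of -0.63 to -0.26. The number of members called was less stable: 2 in edgeR, 0 with line as a replicate block, 7 with DESeq2, 15 and 13 with limma on log2(TPM + 1) and log2(TPM + 0.1), 1 with the length and GC trend removed and 1 with that trend and the block. Without 1 library it ran from 0 to 10, and it was 5, 0 and 0 without line 6, 23 and 34. Of all genes tested, 757 were called, and 213 with the block, 2281 with DESeq2, 1911 and 1753 on the TPM scales, 448 with the trend removed and the block, 0 to 2449 without 1 library, and 1422, 0 and 0 without line 6, 23 and 34. On log2(TPM + 1) and log2(TPM + 0.1) the members' medians were -0.85 and -0.86, where all genes had -0.35 and -0.42; without the filter all genes had 0.15.

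The adjusted p of Gtse1 in edgeR ran from 0.0146 to 0.256 and that of Mad2l1 from 0.0231 to 0.290 over the left-out libraries and lines. The block turned no member's sign. Signs turned for 8 members, none of them called. Without 1 library, Anln ran from -0.45 to 0.039, Aurkb from -0.63 to 0.012, Foxm1 from -0.58 to 0.059, Ube2c from -0.43 to 0.22, Bub1 from -0.42 to 0.56, Kif11 from -0.22 to 0.37, Pttg1 from -0.27 to 0.73 and Cenpa from -0.14 to 0.077. Without line 23, Ube2c was 0.20, Kif11 -0.40 and Cenpa 0.061; without line 34, Bub1 was -0.51, Pttg1 -0.012 and Cenpa 0.073. On the TPM scales Bub1 was -0.35 and -0.38, Kif11 -0.20 and -0.21, and Pttg1 -0.15 and -0.16. With the trend removed, without and with the block, Bub1 was -0.041 and -0.076, Kif11 -0.12 and -0.087, and Cenpa 0.098 and 0.099. Cenpa was 0.0066 with at least 10 counts. The cause of these changes was not tested. Over 41 members and 20 settings, 728 values kept their sign and side of the threshold, 31 turned sign, 42 passed only in the alternative and 19 only in the main setting. With 3 libraries a group, a spread of up to 15.2-fold within a group limits what single members can show, where each had 97 counts or more in every library.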
